A study of Mus musculus with 60 samples.

Results

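The genes described here encode 50 factors that build ribosomes in the nucleolus. They were chosen by symbol from a written list, with earlier results of these data known. All 50 were among the 27179 genes of the count table, and all 50 were among the 18057 genes that passed the filter on low counts. The lowest count of any of them in any library was 281. Grouped by where they act, 5 serve RNA polymerase I, 5 the snoRNPs, 2 are nucleolar chaperones, 15 belong to the small subunit processome, 6 mature the small subunit precursor (pre-40S) and 17 assemble the large subunit precursor (pre-60S).

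RNA Seq was performed on mid-colon from 60 male DBA/1 mice. The mice with collagen-induced arthritis (CIA), a model of inflammatory arthritis, were immunised at 9 to 10 weeks of age with bovine type II collagen in Complete Freund's adjuvant and boosted with collagen on day 21, and their colon was taken 7 days after symptoms began. The naïve mice shared their cages and were sampled at the matching times. No injection of adjuvant alone is described for naïve mice, so arthritis and adjuvant cannot be told apart. Each treatment had 5 mice at every time of sampling (ZT0, then 4 h apart up to ZT20), where zeitgeber time (ZT) counts hours from lights on and the lights went off at ZT12, and each mouse gave 1 library.

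Ribosomes are made in the nucleolus, where RNA polymerase I transcribes one long precursor RNA from the ribosomal DNA. Small nucleolar RNPs (snoRNPs) modify that precursor, the small subunit processome cuts and folds it, and separate sets of factors then carry the small and the large subunit towards the cytoplasm. The genes for these factors are known as a growth programme that the transcription factor MYC can raise, and the dividing cells of the intestinal crypt make many ribosomes.

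Total counts lay between 31382664 and 57564488 in CIA libraries and between 25840240 and 61425974 in naïve libraries. Levels are given in CPM, each count divided by the scaled total of its library, with SD, and scores as the mean log2 CPM of a list in a library. The epithelial score was 9.97 ± 0.16 in CIA and 10.04 ± 0.12 in naïve mice (n = 30 each), and all 18 epithelial markers were measured. One library stood apart for the genes described here: in CIA ZT12 replicate 2 their score was 4.91, against 4.67 to 4.70 in the other CIA libraries of that time. The skeletal muscle score of the same library was 5.13, and that of Naive ZT0 replicate 5 was 3.27, while the other 58 libraries lay between -0.85 and 0.85. The part of this signal in the results was not tested, but without both libraries 33 of the 50 genes were lower in CIA over all time points, 29 were rhythmic in CIA and 35 in naïve mice. In bulk tissue, fewer cells of a type and less RNA per cell cannot be told apart.

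To ask whether ribosome biogenesis genes differed in the arthritic colon, the quasi-likelihood F test of edgeR was first run on all CIA against all naïve libraries. Of the 50 genes, 30 were lower in CIA, 0 were higher and 20 did not pass at an adjusted p of 0.05, while among all genes tested 20.4% were lower and 17.6% higher. The median log2 fold change of CIA over naïve was -0.16 for the 50 genes and -0.02 for all genes tested. The fold change was below 0 for 47 of the 50, and for 54.9% of all genes. None of the 50 fell by 1.5-fold: the genes that passed were between 5.77% and 24.1% lower. Of the 50, 27 were lower in CIA at 6 of 6 time points, as were 17.6% of all genes. Runs that left out 1 library each found between 25 and 32 genes lower. DESeq2 found 30 lower and 1 higher.

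**Figure D1:**
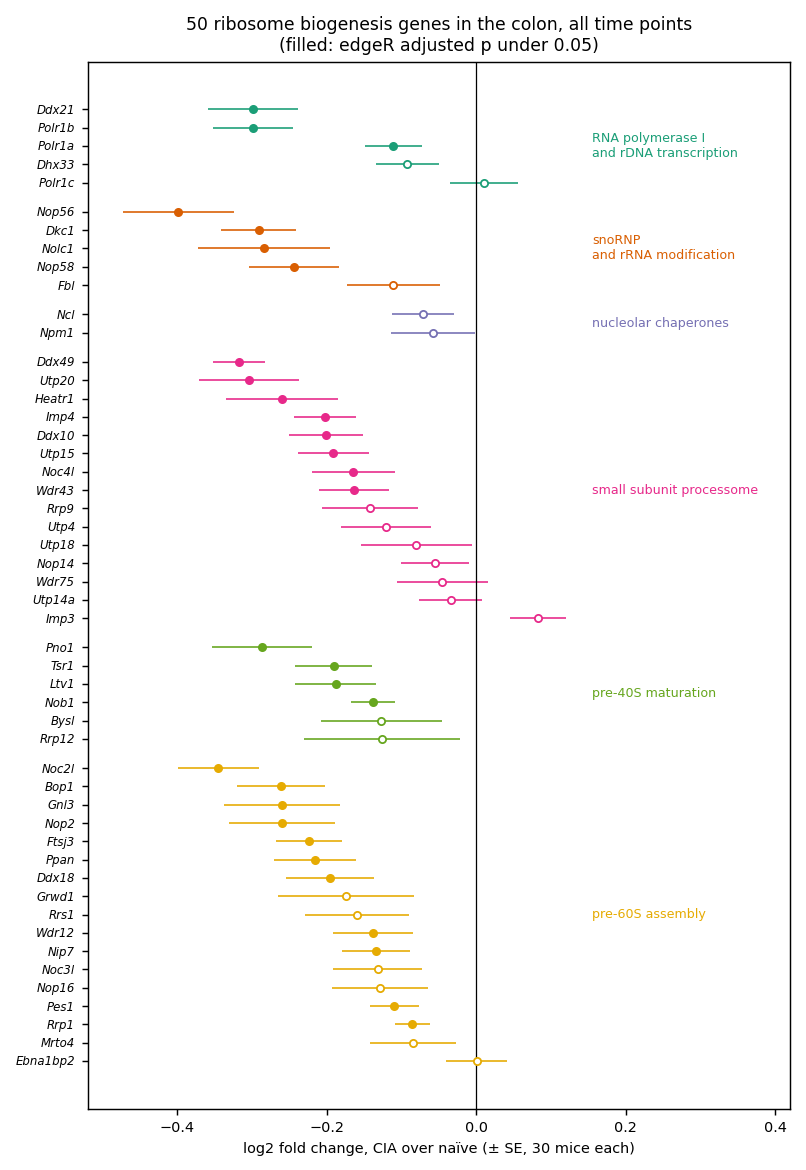
Log2 fold change of CIA over naïve for each of the 50 genes over all time points (x axis, with SE, 30 mice per treatment), grouped by role down the page; filled points passed edgeR's test at an adjusted p of 0.05. The 30 filled points all lie left of 0, with Nop56 at -0.40 farthest left, and Imp3 at 0.08 lies farthest right without passing.

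Among the 5 genes of RNA polymerase I and ribosomal DNA transcription, 3 were lower in CIA. Polr1b, a subunit of the catalytic core, averaged 16.6 ± 1.88 CPM in CIA mice, between 13.4 and 20.1 CPM, and 20.4 ± 3.44 CPM in naïve mice, between 14.4 and 28.3 CPM. The ranges overlapped, yet 29 of 30 CIA mice lay below the naïve median, and the log2 fold change was -0.30 (SE 0.05, edgeR adjusted p = 1.77e-05). Ddx21, a nucleolar RNA helicase, had 33.2, 45.3 and 58.3 CPM in CIA mice, against 40.03, 55.7 and 76.0 CPM in naïve mice, with the same log2 fold change of -0.30 (SE 0.06, edgeR adjusted p = 8.06e-05). Polr1a, which encodes the largest subunit of the enzyme, averaged 25.5 ± 2.72 CPM in CIA mice, against 27.5 ± 2.60 CPM in naïve mice (log2 fold change -0.11, SE 0.04, edgeR adjusted p = 0.0184). Dhx33, a helicase of ribosomal DNA transcription, averaged 21.4 ± 1.74 CPM in CIA mice, against 22.8 ± 3.07 CPM in naïve mice and did not pass (log2 fold change -0.09, edgeR adjusted p = 0.0764). Polr1c, a subunit shared with RNA polymerase III, averaged 45.1 ± 5.94 CPM in CIA mice, against 44.8 ± 5.10 CPM in naïve mice and did not pass either.

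The snoRNP genes had the largest median fold change of the 6 roles, at -0.28, and 4 of the 5 were lower in CIA. Nop56, a core protein of the snoRNPs that guide RNA methylation, had the largest change of all 50 genes. Its lowest, median and highest levels were 25.7, 35.2 and 48.5 CPM in CIA mice, against 28.9, 47.3 and 67.6 CPM in naïve mice. In 29 of 30 CIA mice it lay below the naïve median, and its log2 fold change was -0.40 (SE 0.07, edgeR adjusted p = 3.17e-05). Its partner Nop58 averaged 45.4 ± 5.94 CPM in CIA mice, against 53.7 ± 10.2 CPM in naïve mice (log2 fold change -0.24, edgeR adjusted p = 0.00102). Dkc1, the pseudouridine synthase dyskerin, had 16.3, 19.9 and 23.3 CPM in CIA mice, against 19.2, 23.05 and 32.5 CPM in naïve mice (log2 fold change -0.29, SE 0.05, edgeR adjusted p = 8.73e-06). Nolc1, a chaperone of snoRNPs, averaged 44.4 ± 8.73 CPM in CIA mice, against 54.1 ± 14.4 CPM in naïve mice (log2 fold change -0.28, edgeR adjusted p = 0.00833). Fbl, the methyltransferase fibrillarin, was the one that did not pass, with 39.3 ± 6.28 CPM in CIA mice, against 42.4 ± 7.64 CPM in naïve mice.

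Neither nucleolar chaperone passed. Ncl (nucleolin) had the highest level in CPM of the 50 genes, with 236, 289 and 343 CPM in CIA mice against 245, 300.1 and 398 CPM in naïve mice (log2 fold change -0.07, SE 0.04, edgeR adjusted p = 0.162). Npm1 (nucleophosmin) averaged 253 ± 42.5 CPM in CIA mice, against 264 ± 36.6 CPM in naïve mice (log2 fold change -0.06, edgeR adjusted p = 0.430). Npm1 has processed copies elsewhere in the genome with which its reads could be shared. Per kb of exon Npm1 was the highest of the 50 at 97.0 CPM and Wdr12 the lowest at 0.915 CPM.

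In the small subunit processome 8 of 15 genes were lower. Ddx49, an RNA helicase, stood out: its lowest, median and highest levels were 10.8, 14.2 and 16.5 CPM in CIA mice, against 14.6, 17.4 and 19.999 CPM in naïve mice. All 30 CIA mice lay below the naïve median, and the log2 fold change was -0.32 (SE 0.04, edgeR adjusted p = 4.52e-09), the smallest adjusted p of the 50. Utp20, a large scaffold protein, had 52.6, 74.6 and 104 CPM in CIA mice, against 61.1, 91.6 and 128 CPM in naïve mice (log2 fold change -0.30, SE 0.07, edgeR adjusted p = 0.000263). Imp4, which belongs to the U3 snoRNP, averaged 27.9 ± 2.93 CPM in CIA mice, against 32.1 ± 3.56 CPM in naïve mice (log2 fold change -0.20, edgeR adjusted p = 9.76e-05), with 29 of 30 CIA mice below the naïve median. Utp15, of the subcomplex that joins the precursor RNA first, averaged 14.8 ± 1.44 CPM in CIA mice, against 16.9 ± 2.51 CPM in naïve mice (log2 fold change -0.19, edgeR adjusted p = 0.00113). Imp3, another U3 snoRNP protein, pointed the other way without passing. It averaged 47.005 ± 5.29 CPM in CIA mice, against 44.4 ± 3.72 CPM in naïve mice (log2 fold change 0.08, edgeR adjusted p = 0.0785).

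Of the 6 pre-40S genes, 4 were lower. Pno1, an RNA-binding factor of the late small subunit, had 14.1, 18.3 and 24.5 CPM in CIA mice, against 15.6, 22.5 and 29.2 CPM in naïve mice (log2 fold change -0.29, SE 0.07, edgeR adjusted p = 0.000548). Nob1, the endonuclease that makes the end of 18S rRNA, averaged 17.4 ± 0.924 CPM in CIA mice, against 19.1 ± 1.70 CPM in naïve mice (log2 fold change -0.14, SE 0.03, edgeR adjusted p = 0.000198). The change was small but even, as 29 of 30 CIA mice lay below the naïve median. Tsr1, a GTPase-like factor, averaged 23.9 ± 2.89 CPM in CIA mice, against 27.3 ± 4.17 CPM in naïve mice (log2 fold change -0.19, edgeR adjusted p = 0.00281). Bysl (bystin) and Rrp12, an export factor, did not pass, with log2 fold changes of -0.13 each.

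Of the 17 pre-60S genes, 11 were lower. Noc2l, which travels with the early large subunit, had 30.6, 40.8 and 52.6 CPM in CIA mice, against 35.3, 53.4 and 68.6 CPM in naïve mice. All 30 CIA mice lay below the naïve median, and the log2 fold change was -0.35 (SE 0.05, edgeR adjusted p = 2.66e-06). Ftsj3, an RNA methyltransferase, averaged 31.9 ± 3.14 CPM in CIA mice, against 37.2 ± 5.11 CPM in naïve mice (log2 fold change -0.22, edgeR adjusted p = 6.96e-05). Of the trimer that Bop1, Pes1 and Wdr12 form, Bop1 averaged 32.6 ± 4.30 CPM in CIA mice, against 39.1 ± 6.99 CPM in naïve mice (log2 fold change -0.26, edgeR adjusted p = 0.000405). Wdr12 averaged 10.4 ± 1.41 CPM in CIA mice, against 11.5 ± 1.70 CPM in naïve mice (log2 fold change -0.14, edgeR adjusted p = 0.0363), a call that 43 of 60 runs with 1 library left out repeated. Nop2, a methyltransferase of the large subunit RNA, averaged 26.96 ± 3.81 CPM in CIA mice, against 32.3 ± 7.25 CPM in naïve mice (log2 fold change -0.26, edgeR adjusted p = 0.00285). Grwd1, a chaperone of a ribosomal protein, did not pass, at -0.17 (edgeR adjusted p = 0.123).

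Markers of several cell types moved with treatment beside these genes, where 20.4% of all genes tested were lower in CIA and 17.6% higher. All 18 smooth muscle markers were higher in CIA, and their score ranged between 9.50 and 11.2 in CIA and between 8.71 and 10.8 in naïve mice. Of 15 enteric neuron markers 14 were higher. Of 18 proliferation markers 17 were lower, with scores between 3.03 and 5.07 in CIA and between 3.69 and 5.68 in naïve mice. Macrophage markers were lower in 9 of 9 cases, T cell markers in 5 of 8, B and plasma cell markers in 4 of 10, crypt stem and progenitor markers in 5 of 7 (1 was higher) and epithelial markers in 5 of 18. The median log2 fold change of the epithelial markers was 0.02. Of 8 fibroblast markers, 0 were lower and 0 higher. Skeletal muscle markers were higher in 3 of 9 cases, and the median level of Myh4 was 0 in both treatments. Of the defining markers only Olfm4 (crypt) and Pvalb (skeletal muscle) were below the filter. For immune cells, the paper inferred similar subsets in both treatments from the RNA Seq data with xCell, a gene signature method. Its flow cytometry of the colonic lamina propria found no difference in lymphocyte number or in the proportions of myeloid, B or T cells.

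When the smooth muscle score entered the fit, 7 of the 50 genes were lower in CIA (Polr1a, Polr1b, Nop56, Dkc1, Utp20, Ddx49 and Pno1) and 0 were higher, against 2.39% and 2.31% of all genes. The median of the 50 was then -0.10, with 43 below 0. With the proliferation score, 16 were lower against 12.6% of all genes, and the median was -0.10. With the epithelial score, 29 were lower against 17.6% of all genes, and the median was -0.14. Polr1b, Nop56, Dkc1, Ddx49 and Pno1 were lower under each of the 3 covariates. Ddx49 had a log2 fold change of -0.26 (SE 0.04, edgeR adjusted p = 0.000652) beside the smooth muscle score and -0.29 beside the proliferation score. The part of these cell types in the differences was not tested.

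The comparison was then made at each time point. The score of the 50 genes was 4.75 ± 0.05 in CIA and 4.85 ± 0.13 in naïve mice at ZT0, 4.65 ± 0.11 and 4.77 ± 0.18 at ZT4, and 4.62 ± 0.06 and 4.67 ± 0.05 at ZT8 (CIA, then naïve, n = 5 each). At ZT12 it was 4.72 ± 0.10 in CIA and 5.00 ± 0.11 in naïve mice, at ZT16 4.78 ± 0.11 and 4.93 ± 0.13, and at ZT20 4.84 ± 0.07 and 5.11 ± 0.08. At ZT20 the highest CIA library (4.93) lay below the lowest naïve library (4.99), whereas at ZT12 only CIA replicate 2, at 4.91, reached the naïve range, which began at 4.88. The scores of the 2 treatments overlapped at ZT0, ZT4, ZT8 and ZT16.

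**Figure D2:**
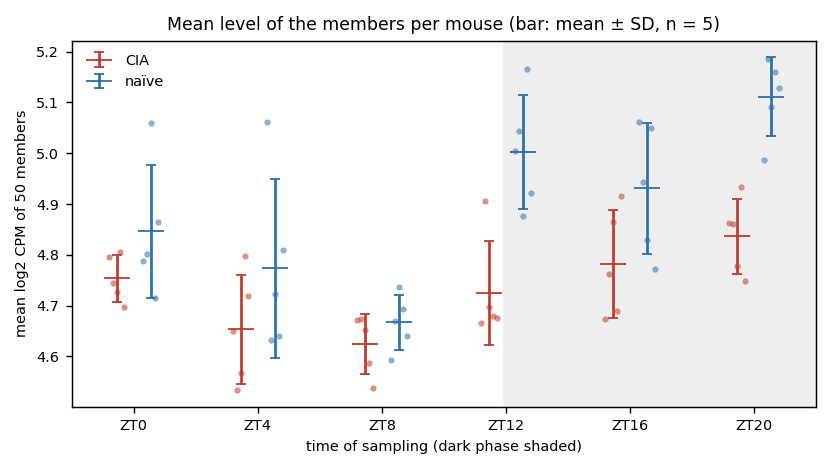
Mean log2 CPM of the 50 genes in each library (y axis) at each time of sampling (x axis), with CIA mice in red left of naïve mice in blue and bars for the mean ± SD of 5 mice; the dark phase is shaded. The groups lie apart at ZT20 (mean 4.84 in CIA, 5.11 in naïve) and overlap at ZT8 (mean 4.62 in CIA, 4.67 in naïve).

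At ZT12, 20 of the 50 genes were lower in CIA and 1 was higher, against 6.42% and 2.86% of all genes. At ZT20, 22 were lower and 0 higher, against 6.88% and 6.14%. Both times shared 15 of these genes, and 27 were lower at one or both. At ZT4 2 genes were lower, Noc2l (log2 fold change -0.41) and Ddx49 (log2 fold change -0.34), against 0.642% of all genes, and 0 were higher, against 0.216%. No gene of the 50 passed edgeR's test at ZT0, ZT8 or ZT16, where 0.0111%, 0.0332% and 0.00554% of all genes were lower. At an unadjusted p under 0.05, 6 of the 50 passed at ZT0, 0 at ZT8 and 13 at ZT16, against 18.4%, 6.36% and 10.8% of all genes. All 50 fold changes were below 0 at ZT16, 48 at ZT20, 46 at ZT12, 43 each at ZT0 and ZT4, and 32 at ZT8. The median log2 fold change was -0.27 at ZT12 and -0.26 at ZT20, beside -0.08, -0.13, -0.04 and -0.14 at ZT0, ZT4, ZT8 and ZT16. Over all genes tested the median was -0.01 at ZT12 and -0.04 at ZT20. It was -0.04, -0.03, 0.0003 and -0.004 over all genes at ZT0, ZT4, ZT8 and ZT16.

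Whether the treatment effect itself depended on the time of day was tested with 5 interaction terms together, and no gene of the 50 passed in edgeR, nor did any gene tested (0% of 18057). At an unadjusted p under 0.05 there were 5 of the 50, and 4.52% of all genes. The counts per time point also rested on single libraries. At ZT12 the count of 21 genes became 11 without CIA replicate 5, 12 without CIA replicate 4 and 13 without naïve replicate 4. At ZT20 the count of 22 became 9 without CIA replicate 3, 11 without naïve replicate 2, 12 without naïve replicate 5 and 14 without CIA replicate 5. At ZT4 the count of 2 became 0 without CIA replicate 1, 2, 3 or 5 or naïve replicate 1 or 5, and at ZT0 the count of 0 became 1 without CIA replicate 3. Without CIA ZT12 replicate 2 and Naive ZT0 replicate 5, the libraries of high skeletal muscle score, 26 genes differed at ZT12. When the smooth muscle score entered the fit, 17 genes were lower at ZT12 (4.60% of all genes) and 0 at ZT20 (0.0166%), although the median of the 50 was -0.26 at ZT12 and -0.22 at ZT20.

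**Figure D3:**
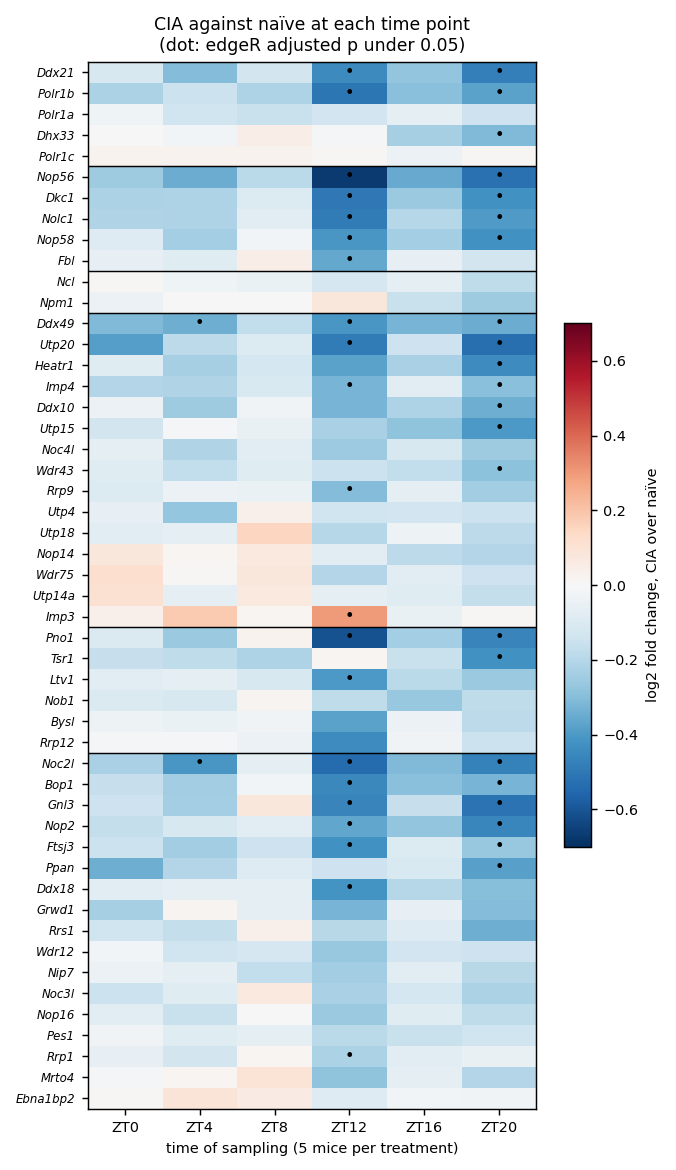
Log2 fold change of CIA over naïve for each of the 50 genes (down the page, by role) at each time of sampling (across), with blue for lower and red for higher in CIA; dots mark an adjusted p under 0.05 in edgeR. Dots mark 21 of the 50 genes at ZT12, 1 of them higher in CIA, 22 at ZT20 and 2 at ZT4.

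Pno1 and Noc2l had the smallest adjusted p at ZT12, and neither overlapped between treatments. Pno1 had 14.1, 20.8, 17.4, 14.5 and 14.2 CPM in the 5 CIA mice, against 26.3, 22.6, 22.4, 28.6 and 23.5 CPM in the 5 naïve mice (log2 fold change -0.61, SE 0.12, edgeR adjusted p = 0.00107). Noc2l had 42.1, 45.8, 39.98, 36.6 and 35.9 CPM in CIA mice, against 57.3, 56.7, 53.03, 68.6 and 55.04 CPM in naïve mice (log2 fold change -0.54, edgeR adjusted p = 0.00107). Groups were fully apart, with CIA lower, for 12 of the 50 genes at ZT12 and 18 at ZT20, and for 4.66% and 6.87% of all genes. Nop56 had the largest fold change of that time, -0.67 (SE 0.14, edgeR adjusted p = 0.00222), with 30.1, 41.5, 34.9, 31.1 and 26.5 CPM in CIA mice, against 61.9, 52.4, 48.3, 53.99 and 44.1 CPM in naïve mice. Imp3 was the gene that was higher in CIA at ZT12, with 49.6 ± 6.06 CPM in CIA mice, against 40.4 ± 4.12 CPM in naïve mice (log2 fold change 0.30, edgeR adjusted p = 0.0122), and its groups overlapped.

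At ZT20 Noc2l again led, with 45.6, 47.2, 45.2, 49.3 and 36.98 CPM in CIA mice, against 59.2, 64.7, 59.6, 59.96 and 67.7 CPM in naïve mice. Its log2 fold change was -0.47 (SE 0.10, edgeR adjusted p = 0.00777), and the highest CIA mouse lay below the lowest naïve mouse. Utp15 had 16.6, 15.5, 12.8, 14.9 and 13.6 CPM in CIA mice, against 18.3, 19.7, 19.9, 19.96 and 19.01 CPM in naïve mice (log2 fold change -0.40, edgeR adjusted p = 0.0102). Dhx33, which did not pass over the whole day, passed here with 20.5, 21.5, 20.1, 21.4 and 19.95 CPM in CIA mice, against 25.5, 27.6, 27.3, 24.2 and 23.5 CPM in naïve mice (log2 fold change -0.31, edgeR adjusted p = 0.0230). For both genes the groups were fully apart at ZT20 and overlapped at the other 5 time points.

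**Figure D4:**
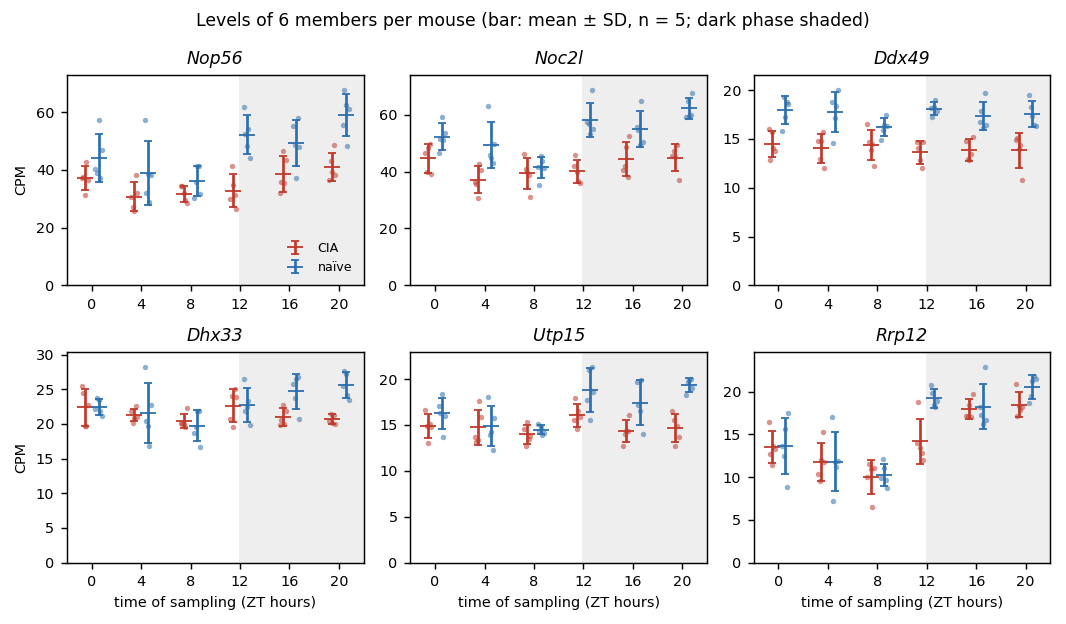
CPM of Nop56, Noc2l, Ddx49, Dhx33, Utp15 and Rrp12 in each mouse (y axes, from 0) at each time of sampling (x axes), with CIA in red left of naïve in blue and bars for the mean ± SD of 5 mice. Ddx49 is lower in CIA with little change over the day, Dhx33 and Utp15 differ most at ZT20, and Rrp12 follows a similar daily course in both treatments.

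Rhythms were described by a cosine with a period of 24 h fitted to log2 CPM, where the amplitude is the distance from the mean to the peak on the log2 scale. In CIA mice 25 of the 50 genes were rhythmic by limma's F test at an adjusted p of 0.05 (29.7% of all genes), and in naïve mice 34 (31.8%). Of these, 22 were rhythmic in both treatments (18.3% of all genes), 12 in naïve mice alone and 3 in CIA mice alone (Imp3, Nip7 and Ftsj3). Passing in one treatment and not in the other does not show a difference between them, which was tested separately.

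Most of the rhythmic genes peaked at night. The peak fell in the dark phase for 22 of 25 genes in CIA and 33 of 34 in naïve mice, where 49.9% and 52.1% of all rhythmic genes did. Between ZT16 and ZT20 alone there were 20 peaks in CIA and 29 in naïve mice (19.6% and 28.2% of all rhythmic genes). The median dark peak was at ZT18.4 in CIA and ZT17.7 in naïve mice, with ranges of ZT16.0 to ZT23.2 and ZT12.8 to ZT22.6. Among the 22 genes rhythmic in both, 20 had the larger amplitude in naïve mice, as did 57.7% of all such genes. Of the same 22, 15 peaked later in CIA, with a median shift of 0.474 h, while over all genes rhythmic in both 61.2% peaked later and the median shift was 0.370 h.

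The largest amplitudes belonged to Rrp12, Nolc1, Grwd1, Bysl, Nop2 and Utp18. Rrp12 had 10.0 ± 2.01 CPM at ZT8 and 18.5 ± 1.41 CPM at ZT20 in CIA mice, and 10.3 ± 1.29 CPM at ZT8 and 20.5 ± 1.38 CPM at ZT20 in naïve mice. Its amplitude was 0.44 (SE 0.06) with a peak at ZT18.2 in CIA and 0.50 (SE 0.08) with a peak at ZT17.1 in naïve mice, which is a 1.85-fold and a 1.99-fold change between trough and peak. Nolc1 followed with amplitudes of 0.33 in CIA and 0.42 in naïve mice and peaks at ZT17.7 and ZT17.4. Grwd1 had amplitudes of 0.30 in CIA and 0.40 in naïve mice, Bysl 0.30 and 0.35, Nop2 0.21 and 0.37, and Utp18 0.24 and 0.33. All 6 were rhythmic in both treatments and took the class "same" described next.

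A few genes kept other hours. Chosen here after their values were seen, Polr1c peaked in the early light phase in both treatments, at ZT3.29 in CIA and ZT3.33 in naïve mice, with amplitudes of 0.15 and 0.12. Rrp9, a U3 snoRNP protein, peaked around lights off, at ZT11.8 in CIA and ZT12.8 in naïve mice. Imp3 peaked at ZT5.32 in CIA mice and did not pass in naïve mice. Ncl and Npm1 passed in neither treatment, and Utp14a, Ddx49 and Rrp1 were classed as arrhythmic. Ddx49, the gene with the smallest p between treatments, had amplitudes of 0.03 in both.

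**Figure D5:**
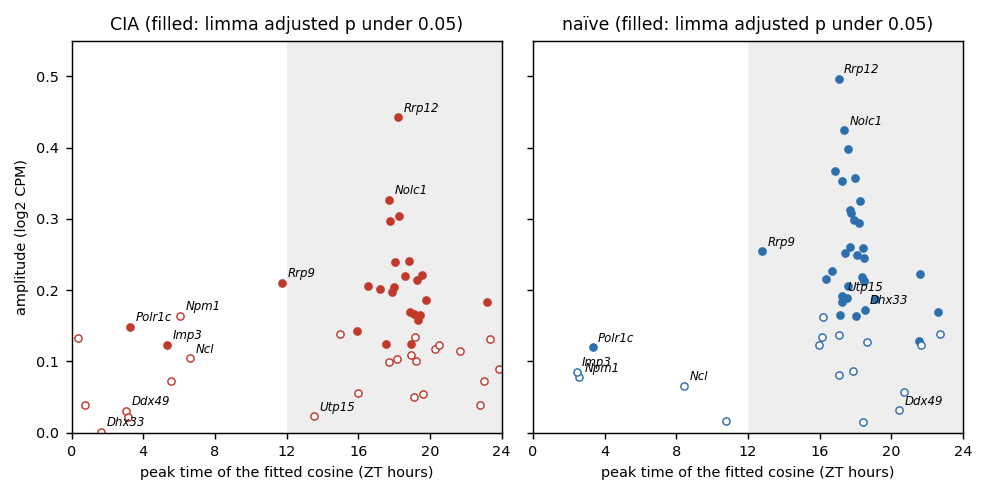
Amplitude (y axis, log2 CPM) against peak time (x axis, ZT hours) of the fitted cosine for each of the 50 genes in CIA mice (left) and naïve mice (right); filled points are rhythmic by limma at an adjusted p of 0.05 and the dark phase is shaded. The filled points gather in the dark phase, 22 of 25 in CIA and 33 of 34 in naïve mice, and Rrp12 is highest in both panels.

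Each gene was then placed among 5 models of its rhythm in the 2 treatments, taking the one with a Schwarz weight of at least 0.6. Of the 50 genes, 34 took "same", an equal rhythm in both (34.7% of all genes), and 5 took "loss", a rhythm in naïve mice alone (4.65%). None took "gain" or "change" (2.40% and 0.233% of all genes), 3 were arrhythmic (35.7%) and 8 reached the weight in no class. The 5 genes of the class loss were Polr1b, Dhx33, Utp15, Nop14 and Nob1. Leaving out 1 library gave between 3 and 6 genes in this class; the count was 3 without CIA ZT12 replicate 3, Naive ZT4 replicate 3, Naive ZT4 replicate 4, Naive ZT8 replicate 1 or Naive ZT20 replicate 5. A weight of 0.8 left 3.

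Dhx33 had an amplitude of 0.00 (SE 0.03) in CIA and 0.17 (SE 0.04) in naïve mice, where it peaked at ZT18.5 (limma adjusted p = 0.999 and 0.00960). Its mean was 20.4 ± 1.05 CPM at ZT8 and 20.7 ± 0.714 CPM at ZT20 in CIA mice, and 19.7 ± 2.24 CPM at ZT8 and 25.6 ± 1.81 CPM at ZT20 in naïve mice. The groups overlapped at every time point but ZT20. Utp15 had amplitudes of 0.02 (SE 0.04) in CIA and 0.19 (SE 0.05) in naïve mice. Nop14, a processome protein, had 0.05 and 0.19, Polr1b 0.05 and 0.16, and Nob1 0.02 and 0.09; of the last 2 genes, neither passed limma's test in naïve mice. The difference in rhythm itself had an unadjusted edgeR p of 0.0110 for Dhx33, 0.0128 for Utp15, 0.0452 for Nob1, 0.0459 for Nop14 and 0.195 for Polr1b, and adjusted p values between 0.731 and 0.754.

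No gene of the 50 passed the test of a difference in rhythm after adjustment, in edgeR or in limma; 4 passed at an unadjusted p under 0.05 in each, and 6.51% of all genes did in edgeR. In edgeR 0.0222% of all genes passed after adjustment. The naïve amplitude was larger for 40 of the 50 genes, and for 57.1% of all genes. The median amplitude of the 50 was 0.13 in CIA and 0.19 in naïve mice, where that of all genes was 0.15 and 0.18. The score of the 50 genes had an amplitude of 0.10 (SE 0.02) with a peak at ZT18.9 in CIA, and 0.17 (SE 0.04) with a peak at ZT17.9 in naïve mice.

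The other genes of the pathway were taken from written lists. Of 86 further ribosome biogenesis factors, 41 were lower in CIA and 2 higher, with a median log2 fold change of -0.11, where 20.4% of all genes were lower and 17.6% higher. Wdr46, a nucleolar scaffold protein, was at -0.35, Rcl1, a factor of the small subunit processome, at -0.32 and the helicase Ddx27 at -0.26 (edgeR adjusted p = 1.92e-07, 7.42e-06 and 1.84e-06). By limma 28 of the 86 were rhythmic in CIA and 40 in naïve mice, against 29.7% and 31.8% of all genes. The rhythmic ones peaked at night in 25 of 28 cases in CIA and 39 of 40 in naïve mice. Among all rhythmic genes 49.9% and 52.1% did. Of 9 RNA polymerase I factors, 3 were lower and 1 higher, beside the same shares of all genes. Taf1c, of the promoter selectivity factor, averaged 13.9 ± 1.82 CPM in CIA mice, against 17.9 ± 2.05 CPM in naïve mice, while Taf1a of the same complex averaged 19.9 ± 2.27 CPM in CIA mice, against 17.9 ± 1.65 CPM in naïve mice. Their log2 fold changes were -0.36 and 0.16 (edgeR adjusted p = 7.56e-08 and 0.00136).

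The RNA exosome, which trims the precursor RNA, had 6 of 14 genes lower and 0 higher, beside 20.4% and 17.6% of all genes, with its nuclease Exosc10 at -0.19 (edgeR adjusted p = 0.000303). Of 75 cytosolic ribosomal proteins, the cargo of this pathway, 16 were lower and 11 higher, shares near those of all genes (20.4% lower, 17.6% higher), and their median of -0.02 was that of all genes. Rpl4 averaged 688 ± 80.3 CPM in CIA mice, against 807 ± 73.8 CPM in naïve mice (log2 fold change -0.23, edgeR adjusted p = 8.71e-06). By limma 6 of the 75 were rhythmic in CIA and 24 in naïve mice, against 29.7% and 31.8% of all genes. All of these peaked in the light phase, where 49.9% and 52.1% of all rhythmic genes peaked in the dark phase. The class "same" held 51 of the 75 (34.7% of all genes), and loss, gain and change held 0. The 2 counts therefore do not show a difference in rhythm between treatments. Ribosomal protein genes have many processed copies, so reads may be shared among them.

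Among 27 regulators of ribosome synthesis, 8 were lower and 4 higher, beside 20.4% and 17.6% of all genes. Myc had 12.9, 18.0 and 28.6 CPM as lowest, median and highest level in CIA mice, against 13.8, 23.3 and 34.4 CPM in naïve mice. Its log2 fold change was -0.36 (SE 0.08, edgeR adjusted p = 0.000287), with 26 of 30 CIA mice below the naïve median. Its peak was at ZT2.45 in CIA and ZT21.2 in naïve mice, with amplitudes of 0.21 and 0.24, and its difference in rhythm did not pass (edgeR adjusted p = 0.731). Trp53, the p53 gene, was at -0.23 (edgeR adjusted p = 0.000104) and Tsc2, a brake on growth signalling, at -0.12 (edgeR adjusted p = 4.70e-05). Of 18 proliferation markers, Mcm2, Mcm5 and Tyms were lower by log2 fold changes of -0.68, -0.61 and -0.38, with amplitudes between 0.31 and 0.74.

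Because most of these genes peaked in the same hours, their promoters were searched for CACGTG, the E-box that MYC and the clock factors CLOCK and BMAL1 can bind. The motif reads the same on both strands. RefSeq gave promoter windows of 250 bases before to 50 after the transcript start (GRCm38.p6) for 45 of the 50 genes, and 12 of the 45 held CACGTG (26.7%), as did 10.6% of the 13406 tested genes with a window. It was in 3 of 5 pre-40S genes, 5 of 15 processome genes, 3 of 15 pre-60S genes and 1 of 5 RNA polymerase I genes. No window of the 4 snoRNP genes and 1 nucleolar chaperone that had one held it. It was in 13 of 66 of the further biogenesis factors (19.7%) and 6 of 55 ribosomal protein genes (10.9%). The regulators of ribosome synthesis held it in 5 of 21 cases (23.8%), the further RNA polymerase I factors in 1 of 9 (11.1%) and the RNA exosome in 1 of 12 (8.33%). Within 40 bases of the start, a distance chosen after the positions were seen, 10 of the 45 genes held it (22.2%), as did 3.93% of tested genes. A match is a description of letters and not evidence of binding.

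The windows of the 8 genes with this motif whose values are given above are shown to let its place and neighbours be compared, on the gene's strand, 5′ to 3′, with CACGTG in capitals and up to 12 bases on each side. Bases are counted from the transcript start at 1, with those before it negative.
Dhx33 (chr11:71004450-71004479, minus strand, motif from base -35): ccagcacgcctgCACGTGgcgagaaagggg
Utp18 (chr11:93885769-93885798, minus strand, motif from base -20): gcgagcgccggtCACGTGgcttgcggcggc
Utp20 (chr10:88826765-88826789, minus strand, motif from base 38): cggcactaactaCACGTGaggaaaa
Imp4 (chr1:34439696-34439725, plus strand, motif from base -121): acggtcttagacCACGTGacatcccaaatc
Tsr1 (chr11:74898092-74898121, plus strand, motif from base 25): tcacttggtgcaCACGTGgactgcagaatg
Pno1 (chr11:17211540-17211564, minus strand, motif from base 38): tgtacaaccacgCACGTGttcctct
Nop2 (chr6:125131811-125131840, plus strand, motif from base -60): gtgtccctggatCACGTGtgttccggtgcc
Grwd1 (chr7:45830740-45830767, minus strand, motif from base 35): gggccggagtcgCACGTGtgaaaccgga

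In Imp4, Nop2, Utp18 and Dhx33 the motif lay before the start, and in Utp20, Tsr1, Pno1 and Grwd1 it lay within the first bases of the transcript, where the last windows are shorter because the table ends there. The starts used for Dhx33 and Grwd1 lay inside the outer end of the annotated gene. Utp4, Wdr43, Ltv1 and Pes1 also held the motif. Of the 12 genes with CACGTG, 8 were lower in CIA, 5 were rhythmic in CIA and 10 in naïve mice. Of the 33 genes whose window did not hold it, 21 were lower, 16 were rhythmic in CIA and 20 in naïve mice. The median log2 fold change was -0.18 with the motif and -0.14 without it, and the median naïve amplitude 0.20 and 0.19.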

How the data were processed

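RNA was taken from 5 mm of mid-colon, and stranded mRNA libraries were sequenced with paired ends. The authors converted reads with bcl2fastq 2.17.1.14, trimmed them with Trimmomatic 0.36, aligned them to the mouse genome (mm10) with STAR 2.5.3 and counted them per gene with Rsubread. The deposited table holds raw counts for 60 libraries. Of counts between 1 and 20, 74.0% were even. Of the counts of the 50 genes described here 50.6% were, but these began at 281. The shares belong to unlike counts, so they cannot show whether these genes were counted otherwise. How pairs were counted is not given in the sources used here. Symbols came from RefSeq for 25275 identifiers.

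Genes passed a filter on low counts (edgeR filterByExpr, minimum count 10, minimum total 15). Libraries were scaled by TMM. Treatments were compared with edgeR 4.0.16 quasi-likelihood F tests, over all time points and within the 12 groups, with Benjamini-Hochberg adjustment over all 18057 genes. Rhythms were fitted with limma 3.58.1 in each treatment alone on log2 CPM (prior count 2), in R 4.3.3. Scripts were tested on simulated data. Alternatives included DESeq2 1.42.0, voom, other scaling and filters, covariates, a replicate block and leaving out each library. The proliferation covariate, the shared-spread rhythm fit and the per-time counts without pairs of libraries were chosen after seeing the data.

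The genes named are those with the smallest adjusted p of each role (up to 3), the 6 largest amplitudes, Dhx33, Utp15 and Ddx49, those in the classes loss, gain or change or passing a test of a difference in rhythm or over time, and the highest and lowest mean CPM; from other lists, up to 3 by adjusted p, and Myc. Further genes named were chosen after their values were seen. Members and lists were chosen with earlier results of these data known. Each library is labelled as a separate mouse sample, and p-values measure the spread between these samples. Of 337 entries in the other lists, 333 matched and 331 were tested.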

Additional observations from a re-analysis of the deposited data

Results flagged for a closer look

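The score of the 50 genes in each group of 5 libraries was checked for a library far from the rest. So were the levels of the 6 genes with the smallest adjusted p at ZT12 and at ZT20. Of 36 groups, 5 had such a library. The rule flags about 1 in 20 unrelated groups by chance. These groups share mice, and their genes were picked by p, so that rate does not apply to them. The score was 4.91 in CIA ZT12 replicate 2, and the nearest of the other libraries was at 4.70; the skeletal muscle score of this library was 5.13. Noc2l was at 68.6 CPM in Naive ZT12 replicate 4, and the nearest other mouse was at 57.3 CPM. In CIA ZT20 replicate 4, Ddx21 was at 56.3 CPM (nearest 48.4 CPM) and Pno1 at 24.5 CPM (nearest 19.4 CPM). Ddx49 was at 10.8 CPM in CIA ZT20 replicate 5, and the nearest other mouse was at 14.01 CPM.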

How the results depend on the processing

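Over all time points the count of 30 genes lower in CIA fell to 16 with the proliferation score and 7 with the smooth muscle score, and lay between 25 and 32 with 1 library left out. The count higher became 1 with DESeq2, RLE scaling, halved counts, a mean CPM of at least 5, or without ZT8 or ZT16, and was 0 to 1 with 1 library left out, being 1 without CIA ZT8 replicate 4, CIA ZT12 replicate 3, CIA ZT16 replicate 1 or 3, CIA ZT20 replicate 5, Naive ZT4 replicate 4 or Naive ZT8 replicate 5. With the smooth muscle score 4 genes turned above 0 without passing, Npm1 to 0.094, Utp18 to 0.036, Utp14a to 0.018 and Fbl to 0.015; with the proliferation score Wdr75 turned to 0.011 and Ebna1bp2 to -0.013, also without passing. At ZT4 the count of 2 became 0 in a fit of its 10 libraries alone, with the replicate block, with the smooth muscle score, or without Naive ZT4 replicate 5 and Naive ZT12 replicate 3, became 6 without replicate 4 of both treatments at ZT4, and was 0 to 3 with 1 library left out. At ZT0 that range was 0 to 1. At ZT12 the count was 11 in its 10 libraries alone and 11 to 27 with 1 library left out; at ZT20 it was 0 with the smooth muscle score and 9 to 23 with 1 library left out. The class loss held 3 genes at a Schwarz weight of 0.8 and 3 to 6 with 1 library left out. The class gain held 1 gene with a mean CPM of at least 5 or the smooth muscle score and 0 to 1 with 1 library left out (1 without CIA ZT4 replicate 3 or Naive ZT8 replicate 5), and the class change 2 by Akaike weights and 0 to 1 with 1 library left out (1 without Naive ZT4 replicate 1). The causes were not tested. Same-numbered mice of the 2 treatments and time points had deviations with correlations between -0.47 and 0.45, 8 of 30 over 0.1. The labels do not say what the numbers mean, and correlations of levels cannot show whether same-numbered mice were handled together. With the replicate block 30 genes were lower, 21 differed at ZT12 and 22 at ZT20. Of 19 named genes that passed, 17 passed in all 60 runs with 1 library left out. Most of these genes were named for the smallest adjusted p of their role. The other genes that passed were not followed one by one.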
